A study of Mus musculus with 6 samples.

Results

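The complement system was described here by 9 genes measured in ischemic skeletal muscle: the C1q chains *C1qa*, *C1qb* and *C1qc*, the protease *C1ra*, the central components *C3*, *C4b* and *Cfb*, and the anaphylatoxin receptors *C3ar1* and *C5ar1*. They were picked by name out of 18089 genes in the table, with no value of theirs in the rule, and all 9 were found. RNA came from the muscle of male C57BL/6 mice aged 8 to 10 weeks, 7 days after hindlimb ischemia (HLI), a model in which the femoral artery of one leg is ligated and a segment excised. The groups were 3 libraries from wild-type mice (WT) and 3 from mice without the G protein-coupled receptor GPR174 (GPR174-KO, hemizygous Gpr174-/Y since the gene is X-linked). The deletion is not limited to any cell type, and no non-ischemic muscle was among the 6 libraries. The study sequenced these muscles to look for genes downstream of GPR174 after ischemia.

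Complement is a cascade of plasma proteins that marks debris, immune complexes and microbes for uptake. C1q recognises the target and activates the proteases C1r and C1s, which cut C4 and C2 into a C3 convertase; factor B forms the convertase of the alternative pathway. Both convertases cut C3, and the small fragments C3a and C5a act on the receptors C3aR1 and C5aR1 of myeloid cells. The liver makes most plasma complement, but macrophages are the main source of C1q in tissues, and fibroblasts and other stromal cells make C1r, C1s and C3 locally. In injured muscle, complement is known for its part in recruiting and guiding macrophages.

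Total counts were 18417077 to 18695013 in the WT libraries and 19173036 to 19394469 in the GPR174-KO libraries. Levels are given as TMM-scaled CPM, that is counts relative to the library total after an adjustment for composition, in which 3 counts, the smallest number taken as detectable, equal 0.140 to 0.187 CPM for counting error alone. The TMM factors were 0.873 to 0.952 in WT and 1.08 to 1.12 in GPR174-KO libraries, so scaling moved the groups against each other. *Gpr174* itself had 8, 2 and 5 counts in WT and 1, 0 and 0 in GPR174-KO libraries. Replicate 2 lay between replicates 1 and 3 in 86.0% of 3859 abundant genes in WT and in 76.5% in GPR174-KO, and for the complement genes in 9 of 9 and 8 of 9. Results are therefore also given without replicate 2 of either genotype, a fit on 4 libraries in which no gene passed an adjusted p of 0.05 (5026 at an unadjusted p under 0.05, smallest adjusted p 0.0542 in edgeR). The labels number the replicates without saying that each is a separate animal. The methods of the study give gastrocnemius samples of mice, with n = 3 per genotype. P-values measure the spread between these samples, of which the technical part is not known.

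Promoters are shown for genes that were higher in GPR174-KO muscle, so that their letters can be set side by side. The 250 bases before the transcription start were available from RefSeq (GRCm38.p6, a build other than that named for the count table) for 6 of the 9 genes, and 5 are printed in the direction of transcription, ending at the base before the start. *C1qb* lies at chr4:136886201-136886450, *C1qc* at chr4:136892915-136893164, *C3* at chr17:57228137-57228386, *C3ar1* at chr6:122856158-122856407 and *C5ar1* at chr7:16259339-16259588, all on the minus strand. Capitals mark matches to AGGAAG on either strand (CTTCCT on the other), a core bound by PU.1 and other ETS factors, to TTGCNNAA on either strand (C/EBP), to TGANTCA on either strand (AP-1) and to TATAAA on the strand of the gene (TATA box).
C1qb: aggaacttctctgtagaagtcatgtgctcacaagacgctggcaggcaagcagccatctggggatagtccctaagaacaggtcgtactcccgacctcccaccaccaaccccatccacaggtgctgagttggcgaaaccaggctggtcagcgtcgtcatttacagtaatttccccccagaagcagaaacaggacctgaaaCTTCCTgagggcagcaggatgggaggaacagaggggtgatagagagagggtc
C1qc: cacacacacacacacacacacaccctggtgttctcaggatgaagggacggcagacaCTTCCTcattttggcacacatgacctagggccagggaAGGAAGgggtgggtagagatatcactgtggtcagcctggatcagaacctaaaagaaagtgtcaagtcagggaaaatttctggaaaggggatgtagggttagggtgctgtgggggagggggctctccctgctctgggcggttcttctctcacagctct
C3: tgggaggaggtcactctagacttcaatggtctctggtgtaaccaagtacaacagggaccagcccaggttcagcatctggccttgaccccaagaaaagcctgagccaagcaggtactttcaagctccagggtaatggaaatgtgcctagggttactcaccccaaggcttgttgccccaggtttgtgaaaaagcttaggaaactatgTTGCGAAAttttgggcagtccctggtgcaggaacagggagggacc
C3ar1: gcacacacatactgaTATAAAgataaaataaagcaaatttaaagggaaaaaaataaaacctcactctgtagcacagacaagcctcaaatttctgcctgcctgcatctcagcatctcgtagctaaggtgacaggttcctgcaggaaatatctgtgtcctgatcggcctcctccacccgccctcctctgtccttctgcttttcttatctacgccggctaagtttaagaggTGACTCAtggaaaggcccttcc
C5ar1: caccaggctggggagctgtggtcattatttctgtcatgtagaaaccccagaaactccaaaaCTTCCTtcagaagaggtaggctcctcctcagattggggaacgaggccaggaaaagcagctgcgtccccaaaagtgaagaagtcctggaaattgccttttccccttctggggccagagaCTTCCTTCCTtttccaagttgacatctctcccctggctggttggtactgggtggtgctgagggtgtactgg
AGGAAG was found in *C1qb*, *C1qc* and *C5ar1*, that is in 3 of the 6 promoters, against 29.2% of all 27025 promoters of this length. *C5ar1* held 3 matches, of which those nearest the start share bases. TTGCNNAA was found in *C3* alone of the 6 (9.55% of all promoters). *C3ar1* was the one that held TGANTCA (6.87%) and TATAAA (8.12%). Its TGACTCA began 22 bases before the start and its TATAAA 235 bases before it. Letters were matched at any place in the 250 bases, so the TATAAA match does not show a working TATA box. The promoter of *C1ra*, at chr6:124512371-124512620 on the plus strand, held none of these letters. A match describes the letters only and shows neither binding nor a cause.

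All 9 genes passed edgeR's filter on low counts, and 7 differed between genotypes at an adjusted p under 0.05 in edgeR's quasi-likelihood test, 6 higher (the 3 C1q chains, *C3*, *C3ar1* and *C5ar1*) and 1 lower (*C1ra*) in GPR174-KO muscle. *C4b* and *Cfb* did not pass. Differences were common in these libraries: 54.6% of all 14395 tested genes passed in either direction, 27.0% higher and 27.6% lower. With an absolute log2 fold change above 1 as well, the second threshold of the study, *C3ar1* and *C5ar1* passed, both higher, against 3.45% of all tested genes higher and 4.84% lower. The median log2 fold change was 0.69 over the 9 genes and 0.00 over all tested genes (0.00372). CPM ranges of the genotypes were separate for 7 of the 9 genes, 6 higher and 1 lower, as they were for 65.6% of all tested genes, 33.1% higher and 32.4% lower. The number called was 3 to 9 with 1 library left out: 3 without WT replicate 2, 4 without GPR174-KO replicate 2 or 3, and 9 without WT replicate 3. It was 0 with replicates 1 and 3 alone, where 4 of the 9 had an unadjusted p under 0.05.

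**Figure D1:**
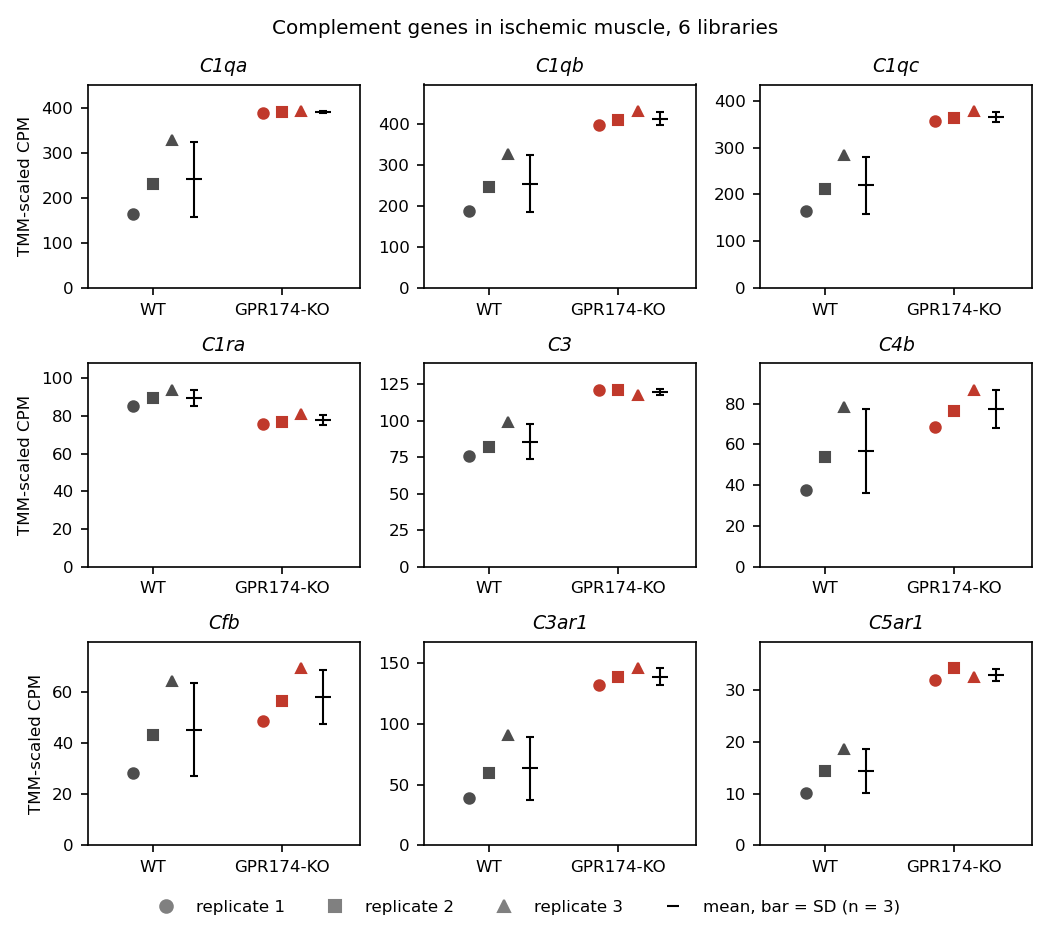
Each panel plots the TMM-scaled CPM of 1 complement gene (vertical axis, from 0) in the 3 WT and 3 GPR174-KO libraries, with the mean and SD (n = 3) beside the points. The GPR174-KO points lie above all WT points for the C1q chains, *C3*, *C3ar1* and *C5ar1* and below them for *C1ra*, while those of *C4b* and *Cfb* overlap with WT.

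The recognition molecule C1q is assembled from A, B and C chains, whose genes lie side by side on chromosome 4 in the order *C1qb*, *C1qc*, *C1qa* and which tissue macrophages express together. *C1qa*, which encodes the A chain, had 165, 232 and 331 CPM in WT replicates 1, 2 and 3 and 391, 393 and 394 in GPR174-KO replicates 1, 2 and 3. *C1qb*, for the B chain, had 189, 247 and 328 CPM in WT libraries and 399, 409.8 and 432 in GPR174-KO libraries. *C1qc*, for the C chain, had 164, 211 and 285 CPM in WT libraries and 357, 364 and 378 in GPR174-KO libraries. For all 3 chains WT replicate 1 was lowest and WT replicate 3 highest, no GPR174-KO library fell within the WT range, and the GPR174-KO libraries lay much closer together than the WT libraries.

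The log2 fold change was 0.69 for *C1qa* (standard error 0.23, adjusted p = 0.0369 in edgeR), 0.70 for *C1qb* (0.18, adjusted p = 0.0172) and 0.74 for *C1qc* (0.18, adjusted p = 0.0144), that is 1.62-, 1.62- and 1.67-fold. These calls were not held by every set of libraries. *C1qa* lost its call without WT replicate 2 (edgeR adjusted p = 0.108) and without any one GPR174-KO library (0.0896, 0.0892 and 0.0939 without replicates 1, 2 and 3). *C1qb* lost it without WT replicate 2 (0.0622) and without GPR174-KO replicate 2 (0.0510) or 3 (0.0595), and *C1qc* without WT replicate 2 (0.0552) or GPR174-KO replicate 3 (0.0505). In each of these fits the log2 fold changes stayed between 0.67 and 0.71. Without WT replicate 1 they were lowest, 0.49, 0.53 and 0.57, and passed. With replicates 1 and 3 alone the 3 chains were at 0.66, 0.68 and 0.71 and did not pass (edgeR adjusted p = 0.223, 0.149 and 0.138). In the fit on the most abundant transcript of each gene *C1qa* was at 0.71 and did not pass (edgeR adjusted p = 0.0756).

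The chains kept close to fixed proportions. The count of *C1qa* per count of *C1qb* was 0.874, 0.939 and 1.01 in WT and 0.981, 0.958 and 0.913 in GPR174-KO libraries, overlapping ranges (log2 difference 0.02, two-sided exact permutation p = 0.9). *C1qc* per *C1qb* was 0.866, 0.854 and 0.869 in WT and 0.895, 0.888 and 0.876 in GPR174-KO libraries, which did not overlap, although the log2 difference was only 0.04 (exact permutation p = 0.1, the smallest that 3 libraries against 3 allow). *C1qa* and *C1qb* each have 1 transcript in the table. A predicted second transcript of *C1qc* took 2.69 to 3.59% of that gene in WT and 4.997 to 5.094% in GPR174-KO libraries, an estimated split of shared reads.

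The proteases C1r and C1s, which C1q activates, moved the other way from C1q in this scaling. *C1ra*, which encodes the C1r protease, had 85.3, 89.5 and 93.95 CPM in WT libraries and 75.9, 76.7 and 80.9 in GPR174-KO libraries. Every GPR174-KO value lay below every WT value, over a much narrower span than for C1q. The log2 fold change was -0.20 (standard error 0.06, edgeR adjusted p = 0.0201). *C1s1*, its neighbour on chromosome 6 and the gene of the C1s protease, had a log2 fold change of -0.25 (edgeR adjusted p = 0.0101). *C1ra* per count of *C1s1* was 0.582, 0.644 and 0.714 in WT and 0.634, 0.662 and 0.701 in GPR174-KO libraries, with no difference detected (exact permutation p = 0.7).

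The direction of *C1ra* depended on the scaling. With library totals in place of TMM factors it was 0.069 (edgeR adjusted p = 0.479), and *C1s1* was 0.025, against a median of 0.28 over all tested genes on the log2 scale. *C1ra* thus lay below the median of all genes in both scalings, while its sign changed and its call was lost. Its call was also lost without WT replicate 2 (edgeR adjusted p = 0.0838) and without GPR174-KO replicate 1 (0.0724) or 2 (0.0896), and that of *C1s1* without GPR174-KO replicate 2 (0.0543). On the most abundant transcript of each gene neither *C1ra* (-0.19) nor *C1s1* (-0.07) passed (edgeR adjusted p = 0.0613 and 0.550). The near-identical paralog *C1rb* held at most 0.508% of the counts of the pair in any library, as the authors' counting split the reads they share.

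*C3*, the protein on which all complement pathways converge, was higher in GPR174-KO muscle. It had 76.2, 81.7 and 99.1 CPM in WT libraries and 121, 121 and 117 in GPR174-KO libraries. The GPR174-KO libraries lay within a few CPM of each other and above all WT libraries. The log2 fold change was 0.48 (standard error 0.10, edgeR adjusted p = 0.00622), or 1.40-fold. The call held with any one library left out, at 0.41 to 0.61, and was lost with replicates 1 and 3 alone (0.45, edgeR adjusted p = 0.110). A predicted transcript accounted for 33.4 to 35.3% of *C3* in WT and 29.1 to 32.5% in GPR174-KO libraries.

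*C4b*, the mouse C4 gene of the classical and lectin pathways, had 37.7, 54.0 and 78.3 CPM in WT libraries and 68.4, 76.4 and 86.8 in GPR174-KO libraries. *Cfb*, which encodes factor B, had 28.1, 43.1 and 64.4 CPM in WT libraries and 48.5, 56.4 and 69.3 in GPR174-KO libraries. In both genes WT replicate 3 was at or above the lower GPR174-KO libraries, and replicate 3 was the highest of either group. The log2 fold change was 0.44 for *C4b* (95% interval -0.14 to 1.03, edgeR adjusted p = 0.164) and 0.36 for *Cfb* (-0.32 to 1.03, adjusted p = 0.320), so neither a difference of the size seen in C1q nor none could be told from these libraries. Without WT replicate 3 both passed, *C4b* at 0.76 (edgeR adjusted p = 0.0120) and *Cfb* at 0.71 (0.0462). *C4b* also passed in both limma fits of FPKM (adjusted p = 0.0455 and 0.0481). *C4a*, nearly identical to *C4b* in sequence, held 0.427 to 0.980% of the estimated counts of the pair.

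The receptors rose most among the 9 genes. *C3ar1*, which encodes the receptor of C3a, had 39.0, 59.8 and 91.1 CPM in WT libraries and 132, 138 and 146 in GPR174-KO libraries. *C5ar1*, which encodes the main receptor of C5a, had 10.1, 14.3 and 18.7 CPM in WT libraries and 31.97, 34.2 and 32.5 in GPR174-KO libraries. The lowest GPR174-KO library was above the highest WT library in both. The log2 fold change was 1.13 for *C3ar1* (standard error 0.27, edgeR adjusted p = 0.0120) and 1.19 for *C5ar1* (0.19, edgeR adjusted p = 0.00272), or 2.19- and 2.28-fold. Both calls at an adjusted p of 0.05 held with any one library left out, with *C3ar1* at 0.89 without WT replicate 1 and 1.496 without WT replicate 3. Without WT replicate 1 *C3ar1* therefore missed the fold threshold. With replicates 1 and 3 alone they were 1.09 and 1.16 (edgeR adjusted p = 0.127 and 0.0685). The receptors kept pace with each other: *C3ar1* per *C5ar1* count was 3.85, 4.18 and 4.89 in WT and 4.13, 4.04 and 4.48 in GPR174-KO libraries (exact permutation p = 0.8). *C5ar1* has 2 transcripts whose estimated shares were unstable, the lesser taking 0 to 35.2% in WT, so the sum over both is used. With the more abundant transcript alone *C5ar1* was at 1.16 and missed the threshold (edgeR adjusted p = 0.0521).

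The receptors and C1q did not change in one proportion. *C5ar1* per count of *C1qb* was 0.0537, 0.0579 and 0.0570 in WT and 0.0802, 0.0835 and 0.0753 in GPR174-KO libraries. *C3ar1* per count of *C1qb* was 0.207, 0.242 and 0.278 in WT and 0.331, 0.338 and 0.338 in GPR174-KO libraries. Neither ratio overlapped between genotypes, and the log2 differences were 0.50 and 0.48, each with an exact permutation p of 0.1, the smallest possible here. *C3* per *C1qb* ran from 0.302 to 0.403 in WT and from 0.272 to 0.304 in GPR174-KO libraries, which overlapped (log2 difference -0.24, exact permutation p = 0.2). The 8 ratios between complement genes that were computed had exact p-values of 0.1 or more, so none could pass a threshold of 0.05.

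Of 46 other complement genes, listed by role, 42 were in the table, 27 passed the filter on low counts and 15 were called, 6 higher and 9 lower, with a median log2 fold change of -0.09 against 0.00372 over all tested genes. Called genes were thus about as frequent as among all tested genes (54.6%). The split turned with the scaling: library totals gave 12 higher and 6 lower, and limma on FPKM 11 higher and 5 lower. The 5 tested receptors besides C3aR1 and C5aR1 were all called, 4 higher and 1 lower. *Itgam*, the alpha chain of complement receptor 3, had 20.04, 27.9 and 39.1 CPM in WT libraries and 79.4, 87.6 and 96.7 in GPR174-KO libraries, without overlap (log2 fold change 1.596, standard error 0.22, edgeR adjusted p = 0.0018). *Itgax*, the alpha chain of complement receptor 4, was at 1.12 (edgeR adjusted p = 0.0011) and *Itgb2*, the beta chain that both share, at 1.11 (edgeR adjusted p = 0.00288). *C5ar2*, the second receptor of C5a, was at 0.65 (edgeR adjusted p = 0.0135), but at -0.16 with its most abundant transcript alone (edgeR adjusted p = 0.951). *Cd93*, once described as a C1q receptor and abundant on endothelium, was the lower one, at -0.27 (edgeR adjusted p = 0.0191), a call lost without WT replicate 2 or any one GPR174-KO library (edgeR adjusted p = 0.0502 to 0.0819) and a sign that turned with library totals (0.012). *Itgam* per count of *Itgb2* was 0.625, 0.666 and 0.707 in WT and 0.900, 0.946 and 0.979 in GPR174-KO libraries (exact permutation p = 0.1).

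Among 12 tested regulators, 6 were called lower, where 27.6% of all tested genes were called lower. The median log2 fold change of the regulators was -0.51, against 0.00372 over all tested genes. The lower ones included membrane shields: *Cd55*, which speeds the decay of convertases, had 159, 142 and 125 CPM in WT libraries and 85.6, 80.3 and 72.6 in GPR174-KO libraries, well below WT in each (-0.84, edgeR adjusted p = 0.00133). *Cd59a* and *Cd59b*, which block the membrane attack complex, were at -1.04 and -1.15 (edgeR adjusted p = 0.00542 and 0.0121), the second not called with its most abundant transcript alone (edgeR adjusted p = 0.103). The fluid-phase inhibitors of that complex were lower too, with *Clu*, clusterin, at -1.10 (edgeR adjusted p = 0.00148) and *Vtn*, vitronectin, at -0.98 (edgeR adjusted p = 0.00408). *C1qbp*, a mostly mitochondrial protein that binds C1q, was at -0.18 (edgeR adjusted p = 0.0170), lost without WT replicate 2, GPR174-KO replicate 2 or GPR174-KO replicate 3 (edgeR adjusted p = 0.0604, 0.0581 and 0.0509) and turned to 0.094 with library totals. *Serping1*, the C1 inhibitor, was at -0.06 (edgeR adjusted p = 0.407), and *Cd46*, *Cd55b*, *Cr1l* and *Susd4* did not pass either, although *Cd46* did without WT replicate 3 (0.0432) or GPR174-KO replicate 3 (0.0238). With library totals *Serping1* and *Cr1l* were called higher, each at 0.21 (edgeR adjusted p = 0.042 and 0.0114), where the median of all tested genes was 0.28. Both limma fits of FPKM called them higher too.

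The remaining roles held few tested genes. *Cfp*, properdin, which stabilises the alternative convertase, was higher (0.62, edgeR adjusted p = 0.00862), and *Cfd*, factor D, was at 0.06 (edgeR adjusted p = 0.760). *C7* of the membrane attack complex had 5.85, 4.23 and 2.75 CPM in WT libraries and 1.34, 1.55 and 2.28 in GPR174-KO libraries (-1.30, edgeR adjusted p = 0.0136), a call lost without GPR174-KO replicate 1 or 2 (edgeR adjusted p = 0.0510 and 0.0517). *C2* and *C1rl* of the classical pathway were at 0.33 and 0.46 (edgeR adjusted p = 0.109 and 0.125) and both passed without WT replicate 3 (0.00339 and 0.00801). The 3 tested lectin pathway genes did not pass: the protease *Masp1* was at -0.35, and the recognition molecules *Fcna* and *Colec11* at 0.15 and 0.52 (edgeR adjusted p = 0.0616, 0.443 and 0.185). *Masp1* passed without WT replicate 3 (0.0451) or GPR174-KO replicate 1 (0.0412) and with the replicate block (0.0434). With library totals *C2*, *C1rl*, *Fcna* and *Colec11* were called higher (edgeR adjusted p = 0.0217, 0.039, 0.0355 and 0.0343). The median log2 fold change of all tested genes was then 0.28. *C2*, *C1rl* and *Fcna* were also called higher in both limma fits of FPKM. *Hc*, the gene of C5, had 0, 1 and 3 counts in WT and 5, 8 and 3 in GPR174-KO libraries, below the filter, so the RNA of the precursor of C5a was near the limit of detection.

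**Figure D2:**
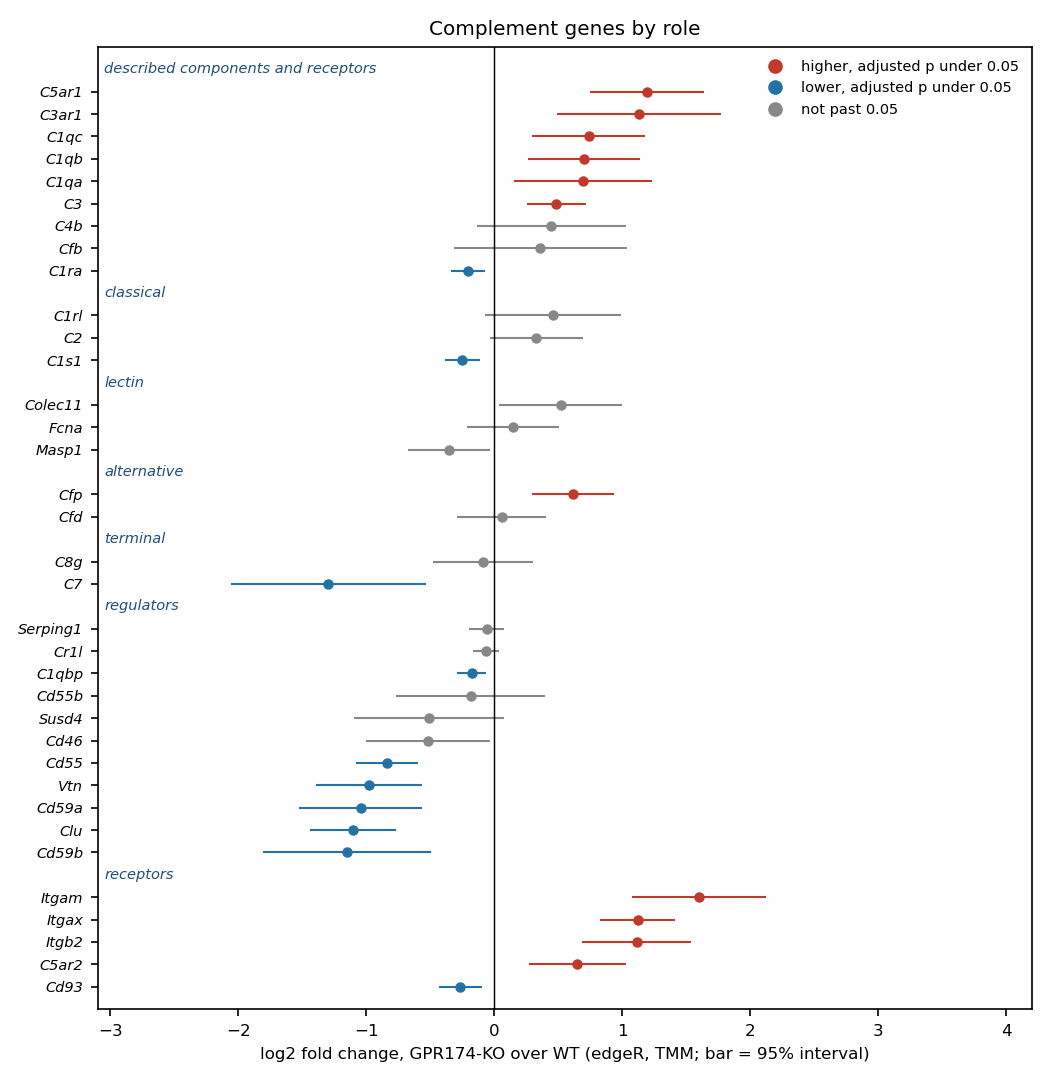
The plot gives the log2 fold change, GPR174-KO over WT, with its 95% interval for the complement genes described here (horizontal axis), grouped by role. Points of the receptors lie mostly to the right of 0 (median 1.11) and those of the regulators mostly to the left (median -0.51). The median over all tested genes was 0.00372. Grey points did not pass an adjusted p of 0.05.

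Markers of several cell types also differed between genotypes, some higher and some lower. In whole muscle, fewer cells of a type and less RNA per cell cannot be told apart. The summed level of 8 macrophage markers was 1097 to 1563 CPM in WT and 2529 to 2539 in GPR174-KO libraries. *Lyz2* alone made up most of that sum, with 680 to 923 CPM in WT and 1531 to 1622 in GPR174-KO libraries. Of the 8 markers, 6 were called higher and none lower, and none was at 0. Among all tested genes, 27.0% were called higher and 27.6% lower. *Cd68*, a lysosomal protein of macrophages, was at 1.22 (edgeR adjusted p = 0.00331), *Adgre1*, which encodes F4/80, at 0.84 (0.0058) and *Csf1r*, the CSF-1 receptor, at 0.77 (0.00391). *Cd163* (-0.31) and *Fcgr1* (0.78) were not called (edgeR adjusted p = 0.265 and 0.0817). The 4 monocyte markers summed to 28.2 to 48.2 and 48.9 to 51.5 CPM (2 higher). *Ly6c2* and *Plac8* were not called (-0.16 and -0.07, edgeR adjusted p = 0.78 and 0.87). *Ccr2* (0.64) and *Chil3* were called higher, the latter with 3, 5 and 6 counts in WT and 41, 24 and 28 in GPR174-KO libraries. The 6 neutrophil markers summed to only 5.45 to 7.53 and 5.54 to 6.33 CPM, where the defining *Ly6g* had 0 counts in 5 libraries and 1 in the other. The 2 neutrophil markers that passed the filter were called in opposite directions, *Mmp8* at 2.85 and *Cxcr2* at -0.57 (edgeR adjusted p = 0.000888 and 0.0193). *Mmp8* had only 3, 2 and 3 counts in WT against 21, 25 and 29 in GPR174-KO libraries. Like *Chil3*, it passed the filter through the GPR174-KO libraries, and its fold change rests on WT counts near the limit of detection. T cell markers summed to 12.6 to 22.9 and 22.7 to 24.4 CPM, and the lowest edgeR adjusted p among the 5 was 0.0778 (*Cd8a*). Fibroblast markers summed to 11950 to 16860 and 20710 to 23710 CPM (2 higher, 3 lower of 6). That sum was mostly *Col1a1* and *Col3a1*, the 2 called higher, while *Dcn*, *Lum* and *Pdgfra* were called lower. Endothelial markers summed to 890.1 to 1057 and 572 to 650.4 CPM (1 higher, 5 lower of 6). All 8 mature fibre markers, which define the labelled tissue, were present and lower (median log2 fold change -1.48), with sums of 103800 to 143500 and 44060 to 50650 CPM. Adipocyte markers summed to 375 to 393 and 248 to 285 CPM (2 higher, 1 lower of 5). That sum was mostly *Fabp4*, called lower at -0.82, while *Adipoq* and *Plin1* were called higher, at 0.90 and 0.85. Regenerating muscle markers summed to 2334 to 4742 and 4428 to 5264 CPM (2 higher of 5). Erythroid markers summed to 127 to 186 and 103 to 281 CPM (lowest edgeR adjusted p 0.215, *Alas2*). Of hepatocyte markers, *Alb* had at most 8 counts in a library and *Apoa1* at most 1, and the sum of 15.2 to 25.3 and 10.8 to 11.9 CPM was nearly all *Cyp2e1*. The part of these cells in the complement differences was not tested.

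Set against the macrophage markers, 5 of the 9 genes were lower without overlap, 1 was higher and 3 overlapped. The share of all genes that were lower against this reference was not computed. The reference, mostly *Lyz2*, was itself higher in GPR174-KO libraries (2529 to 2539 CPM against 1097 to 1563 in WT). The median log2 fold change over all tested genes was 0.00372, so a gene of unchanged CPM would also be lower. Per 100 counts of the 8 macrophage markers, *C1qb* had 17.2, 19.2 and 21.0 counts in WT and 15.8, 16.2 and 17.0 in GPR174-KO libraries, so the GPR174-KO values lay just below WT. *C3* had 6.94, 6.37 and 6.34 counts in WT and 4.80, 4.78 and 4.62 in GPR174-KO libraries, and *C1ra* had 7.78, 6.97 and 6.01 and 3.001, 3.03 and 3.19. *C5ar1* had 0.925, 1.11 and 1.19 counts in WT and 1.26, 1.35 and 1.28 in GPR174-KO libraries, the only one of the 9 genes that was higher without overlap. Lower without overlap were *C1qb*, *C1qc*, *C1ra*, *C3* and *C4b*, with log2 differences of -0.23, -0.19, -1.16, -0.47 and -0.46. *C1qa* (-0.21), *Cfb* (-0.53) and *C3ar1* (0.25) overlapped. Each of the 6 without overlap had a two-sided exact permutation p of 0.1, the smallest possible, so these 9 comparisons cannot pass 0.05. A ratio of this kind shows unequal change and does not show which side changed. With *Ptprc*, the pan-leukocyte CD45, as the reference, 3 genes were lower (*C1ra*, *C3* and *C4b*) and 2 higher (*C3ar1* and *C5ar1*), and the 3 C1q chains overlapped between genotypes. *C1qa* was at 0.69 in edgeR but at -0.03 per *Ptprc* count, so *Ptprc* was itself higher in GPR174-KO libraries. A gene of unchanged CPM would be lower against it too, and the share of all genes that were lower was not computed.

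**Figure D3:**
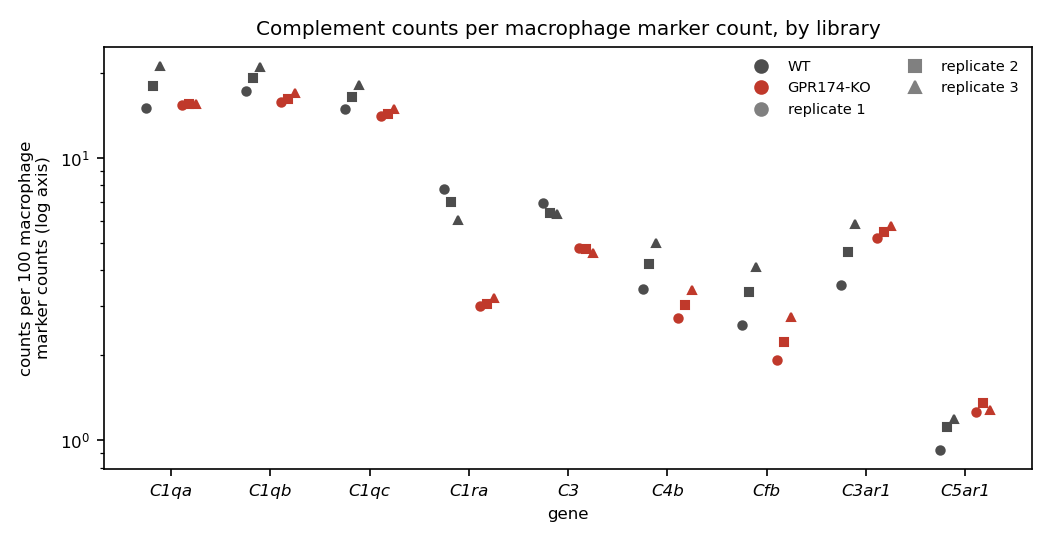
For each complement gene the plot shows counts per 100 counts of the 8 macrophage markers (logarithmic vertical axis) in the 3 WT and 3 GPR174-KO libraries. Most of the marker counts were of *Lyz2*. GPR174-KO points lie below WT for *C1ra* (3.001 to 3.19 against 6.01 to 7.78) and *C3*, just below WT for *C1qb*, *C1qc* and *C4b*, and above WT for *C5ar1* alone.

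Levels of different genes were compared per length, as the FPKM that the authors deposited, summed over transcripts. The C1q chains led by a wide margin: *C1qb* had 221 ± 70.2 FPKM in WT and 431 ± 25.9 in GPR174-KO muscle (SD, n = 3), *C1qa* 216 ± 83.4 and 418 ± 9.77, and *C1qc* 199.9 ± 64.3 and 399 ± 19.6. They stood at percentiles 98.1 to 98.3 of the genes in WT and 99.0 to 99.2 in GPR174-KO muscle. FPKM followed in WT with *C1ra* (30.1 ± 2.76), *C3* (19.6 ± 3.76), *Cfb* (16.1 ± 7.18), *C3ar1* (13.7 ± 6.27), *C4b* (9.75 ± 3.93) and *C5ar1* (5.39 ± 1.84; SD, n = 3). In WT the only neighbours in this order whose libraries did not overlap were *C1qc* over *C1ra* and *C1ra* over *C3*. In GPR174-KO muscle *C3ar1* (35.9 ± 2.49) came directly after C1q, ahead of *C3* (32.3 ± 0.532), *C1ra* (31.5 ± 1.69), *Cfb* (24.9 ± 4.99), *C4b* (15.9 ± 2.198) and *C5ar1* (14.8 ± 0.648 FPKM; SD, n = 3). There the steps from *C1qc* to *C3ar1*, from *C3ar1* to *C3* and from *Cfb* to *C4b* were without overlap. *C3ar1* thus ranked 7 of 9 in WT and 4 of 9 in GPR174-KO muscle, and *C1ra* ranked 4 and 6. FPKM carry no TMM factor, and *C1ra* was nearly level between genotypes in them.

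**Figure D4:**
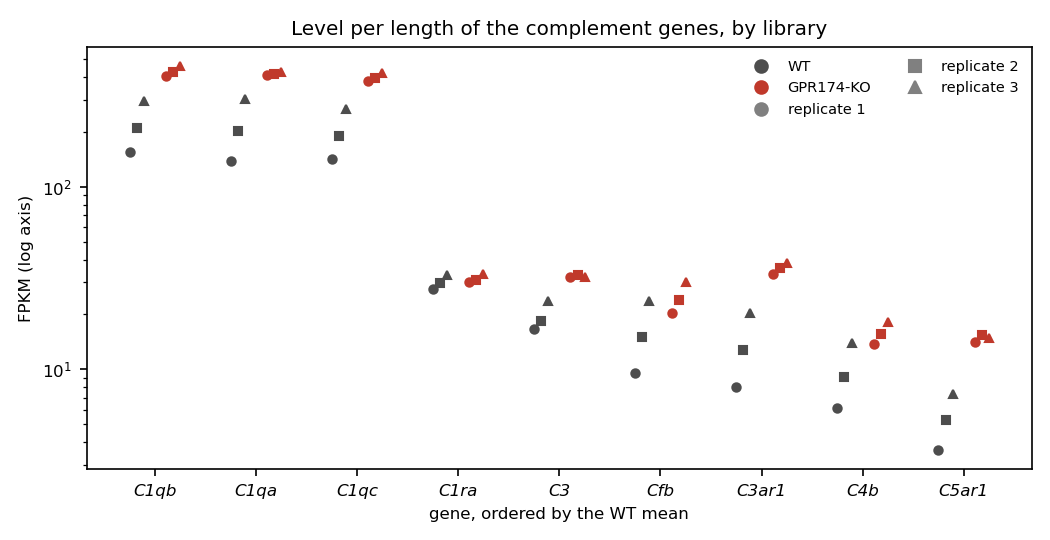
FPKM (logarithmic vertical axis) of the 9 complement genes in each library, ordered by the WT mean. The C1q chains lie highest (*C1qb* mean 221 FPKM in WT and 431 in GPR174-KO muscle), and *C3ar1* passes *C1ra* and *C3* in the GPR174-KO libraries.

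The genes with the most similar profiles were sought among 9946 genes with a mean of at least 10 CPM, by the root mean square distance of centred log2 CPM over the 6 libraries. For the mean of the C1q chains they were *Rasgef1b* (distance 0.0310), *Ccdc88b* (0.0338) and *Dok3* (0.0414). For *C3* they were *Cdc42ep5* (0.0157), *Ttyh3* (0.0193) and *Ctps2* (0.0233), and for *C5ar1* the macrophage marker *Cd68* (0.0351), *Srpx2* (0.0386) and *Bcl3* (0.0486). Pearson's r over the 6 libraries was 0.997 to 0.999 in these pairs, a description that is set largely by the difference between genotypes and the shared order of the WT libraries.

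**Figure D5:**
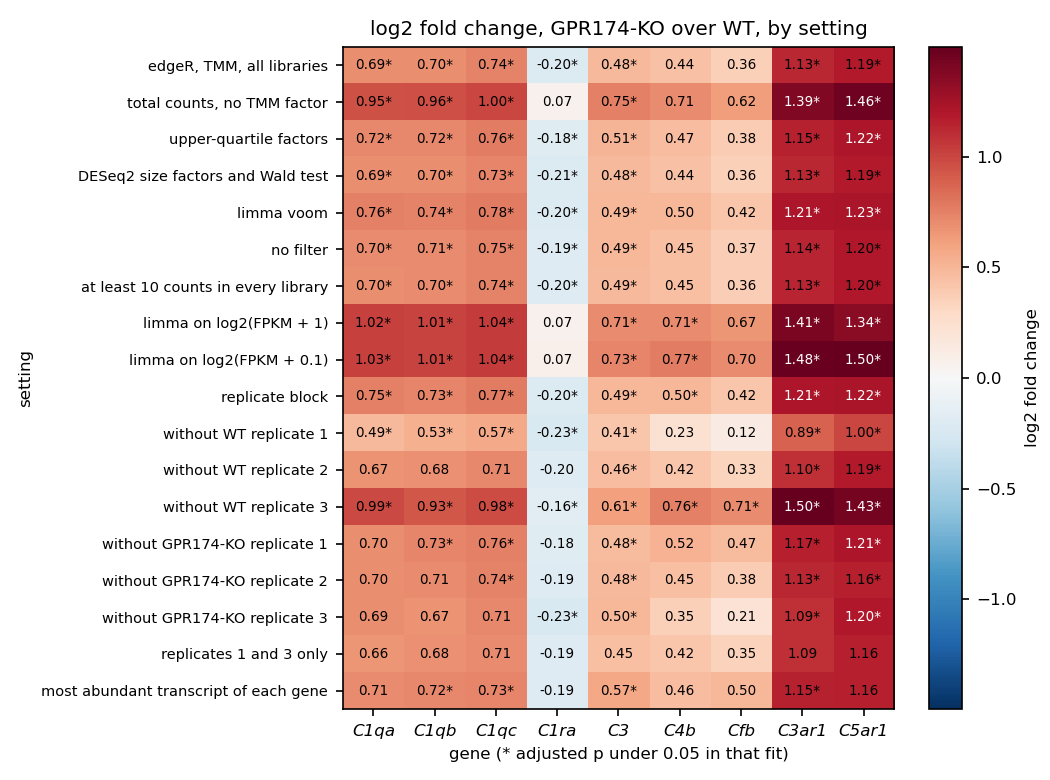
Each row is 1 way of processing the same counts and each column 1 complement gene, and the cell gives the log2 fold change, GPR174-KO over WT, with an asterisk where the adjusted p was under 0.05. *C5ar1* ran from 1.004 to 1.495 and *C3* from 0.41 to 0.75 over the alternatives, *C1ra* changed sign without TMM factors, and no gene has an asterisk with replicates 1 and 3 alone.

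Over the 17 alternatives, 8 of the 9 genes kept a positive log2 fold change in each, and *C1ra* was the exception, positive in 3. The number of alternatives in which a gene was called was 16 for *C3* and *C3ar1*, 15 for *C5ar1*, 14 for *C1qc*, 13 for *C1qb*, 11 for *C1qa*, 9 for *C1ra*, 4 for *C4b* and 1 for *Cfb*.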

How the data were processed

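RNA of 6 muscles was extracted with Trizol and made into libraries with a TruSeq kit per the labels; the methods name the BGISEQ-500 platform. For 58843 RefSeq transcripts the authors deposited expected counts (estimated reads, not normalized), FPKM (scaled for length and depth) and TPM; the TPM were not used. The deposited group means were not used. The submitters' processing notes name HISAT2 2.0.4, Bowtie2 2.2.5, RSEM 1.2.12 and GRCm39, without roles; strand use is not given in the sources used here.

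Samples were grouped by the genotype in the labels. Expected counts were summed per Entrez gene and rounded (18089 genes, 99.7% with a symbol), and compared with edgeR 4.0.16 in R 4.3.3 (TMM, filterByExpr, robust quasi-likelihood F-test, Benjamini-Hochberg over 14395 genes; adjusted p 0.05, absolute log2 fold change 1). The study used DEGseq, which was not run here. Counts simulated with 200 genes changed tested the script, and edgeR recovered 96.5% of them with 8 false calls. The simulated libraries were independent, with the same spread in all genes and few changed genes. These rates therefore need not hold for the real libraries. Ratios within a library were compared by exact permutation tests (two-sided) in Python 3.11.15. Intervals of fold changes come from the edgeR fit and hold the spread between libraries, while floors cover counting error only.

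The 9 genes and the lists were chosen with earlier results of these data known. 1 regulator counted in the lists is not reported here. Named were the 9 genes, other complement genes that passed the filter (those with the largest called changes first), near-identical partners, 3 genes of most similar profile, and cell markers; *Hc* and *Ptprc* were named outside this rule, after their values were seen. Alternatives were total counts, upper-quartile factors, DESeq2 1.42.0, limma 3.58.1 (voom, and log2 FPKM with a pseudocount of 1 or 0.1), no filter, a minimum of 10 counts per library, the most abundant transcript, a replicate block, replicates 1 and 3 alone, other macrophage references, and each library left out.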

Additional observations from a re-analysis of the deposited data

How the results depend on the processing

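Upper-quartile factors, DESeq2, limma voom, no filter and at least 10 counts in every library each gave 7 called complement genes of 9, 6 higher and 1 lower. Library totals gave 6, all higher, and 0 lower; they moved the median of all tested genes to 0.28 and the split of all calls from 3891 higher and 3972 lower to 7303 and 2010. Limma on FPKM gave 7 higher, 0 lower and 5 past both thresholds at either pseudocount, with 6817 higher and 1823 lower genes in all at a pseudocount of 1. The most abundant transcript alone gave 4, all higher, 0 lower and 1 past both. Replicates 1 and 3 alone gave 0 in each count, and 0 of the 27 other complement genes (12 at an unadjusted p under 0.05); the cause was not tested. With 1 library left out, 3 to 9 were called (3 to 8 higher, 0 to 1 lower, 1 to 2 past both), and 11 to 19 of the other complement genes. Genes lower without overlap against the macrophage markers then numbered 5 to 7. With all libraries they numbered 3 against *Ptprc* and 7 against *Adgre1*, *Cd68* and *Csf1r*. The share of all genes lower against these references was not computed. With the replicate block 8 were called, 7 higher (*C4b* was added, at 0.50), and 14 of the others. Same-numbered libraries did not deviate together (correlations -0.0262, -0.0112 and -0.0370 over 3859 genes). That shows no shared deviation, and it cannot tell whether same-numbered samples were handled together.

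Directions reversed in these cases. With library totals *C1ra* was 0.069, *C1s1* 0.025, *C8g* 0.18, *Cd55b* 0.085, *Cr1l* 0.21, *Serping1* 0.21, *C1qbp* 0.094 and *Cd93* 0.012. With limma on FPKM and a pseudocount of 1 *C1ra* was 0.069, *C1s1* 0.026, *C8g* 0.17, *Cr1l* 0.20, *Serping1* 0.21, *C1qbp* 0.094 and *Cd93* 0.011, and with 0.1 *C1ra* was 0.071, *C1s1* 0.026, *C8g* 0.25, *Cr1l* 0.21, *Serping1* 0.21, *C1qbp* 0.095 and *Cd93* 0.011. *Cfd* ran from -0.070 without WT replicate 1 to 0.23 without WT replicate 3, and was -0.0020 without GPR174-KO replicate 3. With the most abundant transcript *Fcna* was -0.11, *Cr1l* 0.054, *Susd4* 0.11 and *C5ar2* -0.16. Depth limits *Hc*, *C7* and other genes of few counts, and 3 libraries a group limit the ratios to an exact permutation p of 0.1.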
